A study of Mus musculus with 3 samples.

Results

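The germ barcodes of the Tsc22d3 knockout testis were taken as the cell barcodes that held at least 500 UMIs (unique molecular identifiers, 1 per captured transcript molecule) and 200 genes, at most 20% of UMIs from mitochondrially encoded genes, and at least 3 of the 6 germline genes Ddx4, Dazl, Sycp1, Sycp3, Mael and Stra8 with at least 4 UMIs in sum. Barcodes in which the Leydig cell genes Star, Cyp11a1, Cyp17a1, Hsd3b1, Hsd3b6 and Insl3 reached 0.5% of UMIs were left out, and no doublets were removed. The members were thus chosen by their counts of these germline and Leydig cell genes. The rules found 88 germ barcodes among 13662 barcodes of the knockout testis that passed the depth and mitochondrial limits. This is 0.644% (exact binomial 95% interval 0.517 to 0.793). The whole series held 17371 barcodes within these limits. The 88 held 1.44% of the UMIs of the kept testis barcodes.

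The testis was that of an adult Tsc22d3 knockout of the goGermline line (Ozgene), a sterile host strain, and its cells were freed by a published procedure. The other libraries of the series were percutaneous aspirates of the cauda epididymis. One aspirate was from a Tsc22d3 knockout chimera that carried cells of the mouse iPSC line Pax7-nGFP iPS x goGermline, and one from a goGermline knockout. Each group was 1 library, the labels name no replicate animals, and no wild-type testis was measured. Single-cell RNA was read with Chromium 3′ v3.1 chemistry, which counts the 3′ ends of transcripts. With 1 library and 1 tissue no test of a condition was possible, barcodes are not replicates, and all intervals below are 95% intervals of counting error only.

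Tsc22d3 encodes a glucocorticoid-induced leucine zipper protein that spermatogonia of the mouse need to survive, and males without it are sterile. In a normal testis, spermatogonia divide by mitosis, answer retinoic acid by switching on Stra8, and enter meiotic prophase. In early prophase chromosomes are cut, paired and joined by the synaptonemal complex, in late prophase the X and Y chromosomes are silenced in a sex body, and after the meiotic divisions spermatids exchange histones for protamines.

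Germ barcodes were deeper than the others, but the rule asks for absolute counts of the selecting genes. Shallow germ barcodes can miss it, so part of the difference in depth may have been set by the selection. They held a median of 17795 UMIs (757 to 58731) and 4810 genes, against 5420 UMIs (500 to 48830) and 2198 genes in the 13574 other kept barcodes of the same testis. Mitochondrially encoded genes took a median of 6.52% of UMIs in germ barcodes and 7.19% in the others. No germ barcode shared its barcode sequence with a kept barcode of either cauda library, whereas 8 kept barcodes of the knockout testis in all did so with the knockout cauda.

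The selecting genes are given as a description only, since they chose the barcodes. Dazl, an RNA-binding protein of the germline, was found in all 88 barcodes with 1 to 111 UMIs and a median of 21.5. Sycp3, of the lateral elements of the synaptonemal complex, ranged from 0 to 253 UMIs with a median of 7, and Sycp1, which bridges the complex, from 0 to 108 with a median of 7. Stra8 was found in 61 barcodes, the RNA helicase gene Ddx4 in 72 and the piRNA factor gene Mael in 68. All 6 genes were found in 42 barcodes, 5 genes in 31, 4 in 9 and the minimum of 3 in 6.

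The sets just inside and just outside the limits were small. The lowest sum of the 6 genes in a germ barcode was 5 UMIs and the median 56.5, while 4 barcodes that missed the rule narrowly on genes or UMIs reached at most 10 UMIs. Of the kept barcodes, 13068 held none of the 6 genes. Another 11 barcodes met the germline rule but went over the steroidogenic limit, with 0.506% to 2.10% of UMIs in the Leydig genes and 4 to 142 germline UMIs. These 11 barcodes carried 40.1% of the 1030 selecting UMIs found outside the 88, so the group of other barcodes is not free of germline RNA. The highest steroidogenic share in a germ barcode was 0.396%.

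Germ barcodes were set against the 13574 other kept barcodes by the ratio of summed UMIs per 1000000 UMIs (CPM). The size rule used below asks for a 4-fold difference and for 100 CPM or more on the higher side. By this rule 422 of 2611 genes (16.2%) were higher in germ barcodes and 474 (18.2%) were lower. The median log2 ratio of all 18508 measured genes was 0.76, and the ratios below can be read against that shift. Against the 1000 Sertoli barcodes alone, 299 of 2899 genes (10.3%) were higher and 544 (18.8%) lower. Against the 4475 Leydig barcodes 521 of 2571 genes (20.3%) were higher and 436 (17%) lower, and against the 2324 macrophage barcodes 575 of 2639 (21.8%) were higher and 502 (19%) lower.

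Of the 25 genes with the largest ratios, 21 had not been used by the rule, and those described here are germline genes among them. Hist1h2aa (chromosome 13), a testis histone gene, stood at 199 CPM (178 to 222) in germ barcodes and 0.158 CPM in the others, a ratio of 1263 (787 to 2158). Mov10l1, a helicase of piRNA biogenesis, stood at 354 and 0.412 CPM, a ratio of 860 (638 to 1183). Smc1b, a cohesin subunit of meiotic chromosome axes, stood at 644 and 0.850 CPM, a ratio of 758 (615 to 943). It was found in 79 of 88 barcodes, with a median of 9 UMIs and a highest value of 65. Hormad1, which marks unpaired chromosome axes, stood at 346 and 0.491 CPM, a ratio of 706 (536 to 946), with a median of 2 UMIs and a highest of 116. Thus both axis genes were seen in most germ barcodes, and Hormad1 was concentrated in fewer of them.

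Among the 25 genes with the largest ratios, 6 lie on the X chromosome. Taf7l, a germline form of a general transcription factor subunit, stood at 513 and 0.823 CPM, a ratio of 623 (503 to 779), and was found in 82 barcodes. Usp26, a ubiquitin protease of the testis, stood at 418 and 0.692 CPM, a ratio of 603 (478 to 771). Tex11, a recombination protein whose loss stops male meiosis in mice, stood at 119 and 0.228 CPM, a ratio of 522 (346 to 818). The other X-linked genes were Pet2, Trap1a and Rhox13, with ratios of 708, 508 and 502. Across all genes past the size rule, X-linked genes were 19 of 422 higher genes (4.50%, 2.73 to 6.94) and 25 of 474 lower genes (5.27%, 3.44 to 7.69), beside 83 of 2611 genes tested (3.18%).

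The remaining genes of the 25 were Ankrd31, of DNA break formation, Trim71, Rbmxl2, Tuba3a, Tex101, Prss50, Crabp1, Tex19.1, Tuba3b, Sohlh1 and Tex12, with ratios of 794 to 515, and the 4 selecting genes Stra8, Sycp1, Mael and Sycp3. Tuba3a and Tuba3b are near-identical copies, and how reads between them were shared is not given in the sources used here. Of each of the 25 genes, germ barcodes held 88% to 94.9% of all UMIs in kept barcodes. The lowest ratios included those of genes of blood, smooth muscle and Leydig cells. Hbb-bs, a globin gene, stood at 2.40 CPM in germ barcodes and 334 CPM in the others, 139-fold lower (54.4 to 511). Tagln, of smooth muscle, stood at 1.80 and 158 CPM, and Klk1b24, a kallikrein gene, at 5.399 and 290.03 CPM.

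Thinning every barcode to 2000 UMIs removed depth as a difference between classes and left out 2 germ barcodes. Smc1b was then detected in 66.3% of 86 germ barcodes (55.3 to 76.1), against 0.259% of 773 Sertoli, 0.174% of 4031 Leydig and 0.0457% of 2186 macrophage barcodes. Taf7l was detected in 62.8% of germ barcodes, against 0.129%, 0.149% and 0.137% of the same classes. Median depths before thinning were 17795, 11520.5, 14918 and 5619 UMIs. Without thinning, Smc1b was detected in 89.8% of germ barcodes and 0.700%, 0.358% and 0.387% of the others. The shares in the classes that should lack these genes were low and alike, and the shares in germ barcodes lay above them. Free RNA was not measured here.

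Promoter windows are shown for 4 of the 25 genes because each carries sequence letters tied to the silencing of germline genes in somatic mouse cells. CACGTG is the E-box read by MAX and its partner MGA, and GCGGGAA is a site of E2F type. Both proteins, MGA and E2F6, belong to a Polycomb complex that represses meiotic genes outside the germline. Hormad1, Tex12 and Sycp3 were the genes with both motifs, and Taf7l is X-linked with the E-box alone. The 250 bases before the annotated start are printed 5′ to 3′ on the gene's strand, from RefSeq on GRCm38.p6, with both motifs in capitals. The windows are chr3:95559427-95559676 on the plus strand for Hormad1, chr9:50561269-50561518 on the minus strand for Tex12, chr10:88459337-88459586 on the plus strand for Sycp3 and chrX:134476491-134476740 on the minus strand for Taf7l.
Hormad1: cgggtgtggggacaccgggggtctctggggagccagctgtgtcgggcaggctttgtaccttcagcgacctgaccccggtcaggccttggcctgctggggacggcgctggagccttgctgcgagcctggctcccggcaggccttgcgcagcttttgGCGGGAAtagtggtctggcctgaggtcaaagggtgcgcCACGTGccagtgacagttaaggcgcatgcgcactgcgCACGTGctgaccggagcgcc
Tex12: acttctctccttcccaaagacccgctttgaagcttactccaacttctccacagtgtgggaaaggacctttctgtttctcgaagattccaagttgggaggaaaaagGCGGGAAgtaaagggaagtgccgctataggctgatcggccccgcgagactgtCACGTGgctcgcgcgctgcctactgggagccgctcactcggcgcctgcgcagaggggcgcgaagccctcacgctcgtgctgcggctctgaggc
Sycp3: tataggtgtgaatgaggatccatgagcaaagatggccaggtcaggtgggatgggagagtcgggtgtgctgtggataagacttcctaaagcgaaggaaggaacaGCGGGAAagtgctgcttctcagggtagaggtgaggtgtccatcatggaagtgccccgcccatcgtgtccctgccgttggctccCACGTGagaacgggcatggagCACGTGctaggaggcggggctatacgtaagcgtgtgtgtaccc
Taf7l: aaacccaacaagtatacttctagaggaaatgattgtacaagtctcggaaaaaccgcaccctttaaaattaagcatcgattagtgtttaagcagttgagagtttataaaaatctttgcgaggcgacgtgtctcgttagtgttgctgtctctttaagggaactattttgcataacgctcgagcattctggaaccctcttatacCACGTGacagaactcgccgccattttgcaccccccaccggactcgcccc

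Counted back from the start, with -1 as the base before it, the E-box began at -57 and -20 in Hormad1, at -93 in Tex12, at -64 and -43 in Sycp3 and at -49 in Taf7l. On either strand, CACGTG lay in 9 of the 22 named genes with a window (40.9%), in 45 of 344 genes past the size rule and higher in germ barcodes (13.1%), in 245 of 2098 genes tested (11.7%) and in 1854 of 27025 genes of the table (6.86%). GCGGGAA lay in 6 of 22 (27.3%), 47 of 344 (13.7%), 209 of 2098 (9.96%) and 1184 of 27025 (4.38%). In the printed windows the motifs do not overlap each other. The 9 genes with the E-box were Hormad1, Mael, Mov10l1, Rbmxl2, Sohlh1, Sycp1, Sycp3, Taf7l and Tex12. Of these, Mael, Sycp1 and Sycp3 had chosen the barcodes, and Sycp3 also holds GCGGGAA. The shares among the named genes are therefore a description. A match of letters is not evidence of binding in these cells.

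Gene lists of the meiotic programme were then summed. These lists were chosen with earlier results of the same data known, so their counts describe the barcodes and test nothing. Few members reached 100 CPM, so members are counted at any level when they differed by at least 4-fold with more than 3 UMIs on the higher side. Of all 18508 measured genes, 2535 (13.7%) were higher and 2205 (11.9%) lower by that count. The synaptonemal complex list stood at 1769 CPM in germ barcodes and 30.7 CPM in the others, a ratio of 57.7 (54.9 to 60.6). Of its 9 members beyond Sycp1 and Sycp3, 8 were at least 4-fold higher, and Sycp2l had 0 UMIs in both groups. Tex12 and Syce3, of the central element, stood at 208 and 239 CPM in germ barcodes, against 0.403 and 0.885 CPM. Syce2, of the same element, had the lowest ratio of the list at 11.8 (10.7 to 12.9), with 24.9 CPM in the other barcodes.

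The 4 meiotic cohesin genes summed to 784 CPM in germ barcodes and 1.997 CPM in the others, a ratio of 393 (341 to 454), and Smc1b gave 1073 of their 1307 UMIs. Stag3, the meiotic cohesin subunit lost in some forms of infertility in mice, stood at 111 and 0.718 CPM and was found in 59 barcodes. Rec8 and Rad21l, the meiotic kleisins that close the cohesin ring, were scarce, with 30 and 19 UMIs in all germ barcodes. All 4 members were at least 4-fold higher, and 2 of them passed the size rule. The ratio of the list was 214 against Sertoli barcodes only and 596 as a mean of each barcode.

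Genes of DNA break formation were present at low levels, and all 9 were at least 4-fold higher at any level, of which 2 reached 100 CPM and passed the size rule. Spo11, which makes the cuts, had 23 UMIs in 8 barcodes, with 11 of them in a single barcode. Ankrd31 stood at 104 and 0.131 CPM, a ratio of 794 (469 to 1450). Prdm9, which places the breaks by marking histones, had 47 UMIs in 21 barcodes, and Zcwpw1, which reads that mark, 486 UMIs in 76 barcodes. Zcwpw1 was thus seen in most germ barcodes while Prdm9 and Spo11 were seen in few.

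Strand exchange genes summed to 1091 CPM in germ barcodes and 56.9 CPM in the others, and 16 of 19 members were at least 4-fold higher at any level, of which 3 passed the size rule. Dmc1, the meiotic recombinase, stood at 46.2 and 1.08 CPM, and Brca2, which loads recombinases on DNA, at 166 and 6.49 CPM. Telomere attachment genes had 5 of 7 members at least 4-fold higher at any level, but 0 reached 100 CPM, and the ratio of the list was 6.18 against all others and 2.93 against Sertoli barcodes only. Among the 5 was Terb2 at 29.4 and 0.0613 CPM.

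The piRNA pathway, which silences transposons, stood at 1787 CPM in germ barcodes and 35.8 CPM in the others, with 17 of 18 members at least 4-fold higher at any level and 5 by the size rule. The ratio of the list was 49.8 against all other barcodes and 11.2 against Sertoli barcodes only. Mov10l1 was found in 70 barcodes, Rnf17 in 71 and Fkbp6, a chaperone of the pathway, in 81. Piwil2, the PIWI protein of spermatogonia and spermatocytes, had 199 UMIs in 56 barcodes. Piwil4, the PIWI protein of fetal germ cells, had 19 UMIs in 12 barcodes, and Piwil1, the PIWI protein of pachytene, had 143 UMIs of which 114 were in 1 barcode. Tdrd7, which many tissues express, was the only member under 4-fold, with a ratio of 2.28.

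**Figure D1:**
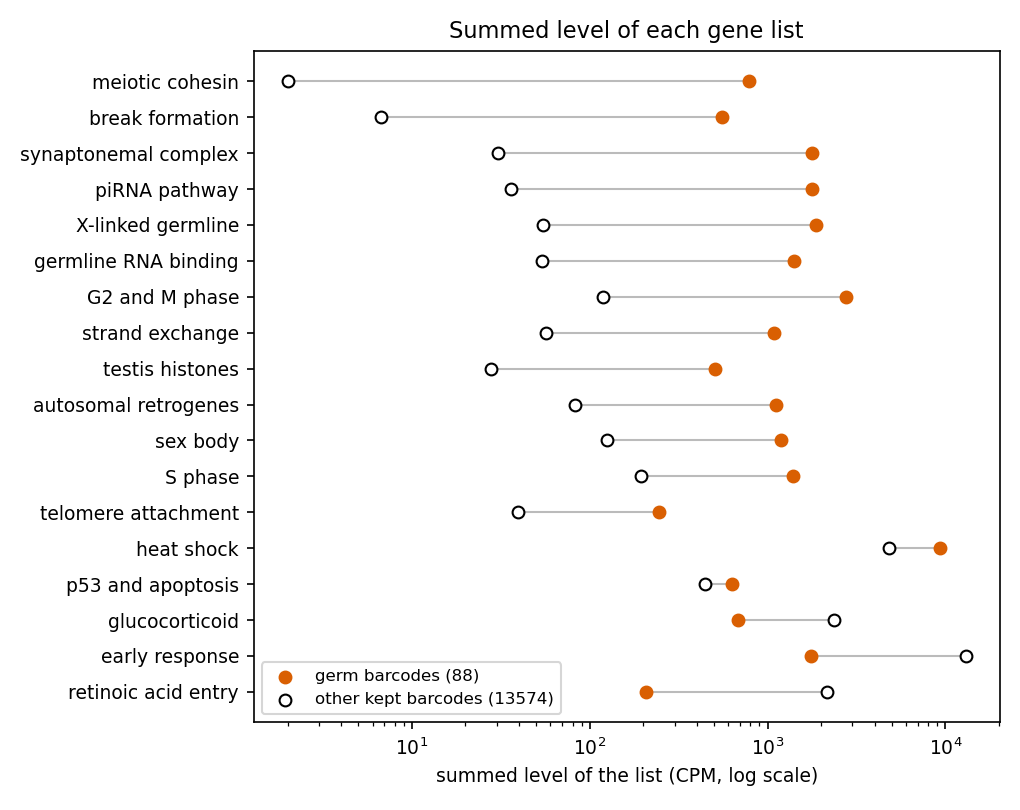
Summed level of each gene list in CPM on a log axis, with filled points for the 88 germ barcodes and open points for the 13574 other kept barcodes of the knockout testis. The meiotic cohesin list has 784 CPM in germ barcodes against 1.997 CPM, and the summed early response, glucocorticoid and retinoic acid lists lie lower in germ barcodes. In the retinoic acid list the members were split, with 6 of 12 ratios above 1 and a median log2 ratio of 0.069. In the glucocorticoid list 4 of 11 ratios were above 1 and 2 members were at least 4-fold lower.

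Germ barcodes carried RNA of dividing cells. The list of G2 and M phase stood at 2776 CPM in germ barcodes and 118 CPM in the others, a ratio of 23.5 (22.8 to 24.3), and all 11 members tested were past the size rule. Cenpf, of the kinetochore, stood at 656 and 11.1 CPM, and Top2a, which untangles DNA, at 577 and 18.6 CPM. Thinned to 2000 UMIs, Top2a was detected in 57.0% of germ barcodes, against 1.16% of Sertoli, 1.09% of Leydig and 2.20% of macrophage barcodes. Several of these genes also act in meiotic cells, so the list does not separate mitosis from meiosis. The S phase list stood at 1383 and 194 CPM, with 7 of 8 members tested higher. Mcm7, of the replicative helicase, stood at 244 and 17.9 CPM.

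Stress-related lists differed in direction. The early response genes, which cell dissociation is known to induce, stood at 1749 CPM in germ barcodes and 13030 CPM in the others, and 10 of 12 were lower by the size rule. The ratio of 0.134 became 0.0401 without barcodes with somatic markers and 0.463 against Sertoli barcodes only. Fos stood at 331 and 2794 CPM, with 0 to 74 UMIs and a median of 1 in germ barcodes. The heat shock list stood at 9328 and 4841 CPM, and Hsp90aa1, a chaperone that is abundant in male germ cells, at 2633 and 329 CPM. Hspa1a, the stress-inducible member, stood at 16.2 and 62.3 CPM. Among 14 genes of the p53 response and apoptosis the summed levels were 631 and 447 CPM. Only 2 members reached 100 CPM, and neither passed the size rule. These were Bax, a promoter of cell death, at 265 and 110 CPM, and Mdm2, which restrains p53, at 121 and 42.7 CPM. At any level 1 member, Pmaip1, was at least 4-fold higher, at 18.6 and 2.66 CPM, and 3 members, Fas, Zmat3 and Bak1, were at least 4-fold lower.

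Tsc22d3 itself had 32 UMIs in 26 germ barcodes, which is 19.2 CPM (13.1 to 27.1), against 6.39 CPM in the other barcodes, a ratio of 3.002 (2.04 to 4.28). Thinned to 2000 UMIs it was detected in 3.49% of germ barcodes (0.725 to 9.86), 0.129% of Sertoli, 1.02% of Leydig and 2.84% of macrophage barcodes, and the germ interval covers the macrophage value. The position of the deletion is not given in the sources used here, and a 3′ tag outside it checks nothing. Nr3c1, the glucocorticoid receptor gene, stood at 64.8 and 83.8 CPM. The glucocorticoid response list summed to 678 and 2365 CPM, a ratio of 0.287 that became 0.503 against Sertoli barcodes only. Of its 11 members, 2 were at least 4-fold lower, beside 11.9% of all measured genes at any level, so the count says little about the list. These were Tsc22d1 at 112 and 1031 CPM and Dusp1 at 119 and 745 CPM. Another 4 had ratios above 1, among them Tsc22d2 at 71.4 and 42.3 CPM and Per1 at 27.6 and 20.6 CPM, and the median log2 ratio was -0.46.

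To place the germ barcodes along spermatogenesis, each took the stage list of 14 genes of which it held the largest share, with at least 3 genes. None of the 6 selecting genes is in these lists. By this measure 18 barcodes (20.5%, 12.6 to 30.4) lay in the spermatogonia range, 46 (52.3%, 41.4 to 63.04) in the early prophase range, 3 (3.41%) in the late prophase range and 0 in the round spermatid range. Another 21 were unassigned, 15 by a tie and 6 for too few genes, and 10 of the ties were between spermatogonia and early prophase. A lead of 1 gene decided 9 of the 18, 8 of the 46 and all 3 of the late prophase barcodes. Where each list's UMI sum was scaled to its own mean instead, the ranges held 40, 22, 7 and 1 barcodes, and after thinning to 2000 UMIs they held 5, 39, 1 and 0. The ranges are therefore cuts in a continuous overlap and not cell types.

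**Figure D2:**
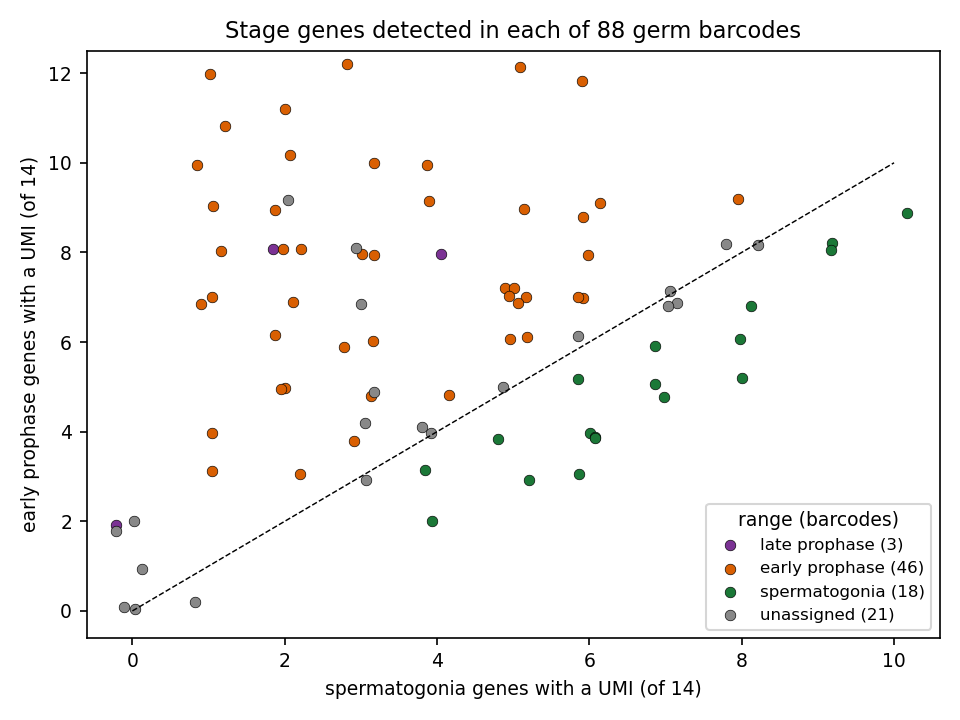
Number of early prophase genes (vertical) against spermatogonia genes (horizontal) detected in each of the 88 germ barcodes, out of 14 each and with small jitter, coloured by stage range. The 46 early prophase barcodes lie above the dashed line of equality and the 18 spermatogonia barcodes below it, with many barcodes near the line.

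Several genes of stem cell spermatogonia were scarce. Gfra1, the receptor for the niche factor GDNF, had 10 UMIs in 5 barcodes. Nanos2, a repressor that keeps stem cells undifferentiated, had 2 UMIs, Neurog3, of progenitors, had 3 and Utf1 had 1. Thy1, a surface protein used to sort spermatogonia, had 0 UMIs, a count that allows up to 3 UMIs or 1.80 CPM. The genes named here were therefore near the limit of detection in nearly all germ barcodes. Other genes of the spermatogonia list were found in more barcodes, Lin28a in 24 and Nanos3 in 14, and Zbtb16 and Sall4 are given below.

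Other spermatogonial regulators, early and later ones, were more widely seen. Dmrt1, a transcription factor that holds back meiotic entry, had 211 UMIs in 50 barcodes, Sohlh1, of differentiating spermatogonia, 174 UMIs in 47 and Sall4, of undifferentiated and differentiating spermatogonia, 98 UMIs in 37. Kit, the receptor of differentiating spermatogonia, had 66 UMIs in 30 germ barcodes and stood at 39.6 CPM in germ barcodes and 196 CPM in the others, where Leydig cells also express it. Zbtb16, of undifferentiated spermatogonia, had 75 UMIs in 28 barcodes and stood at 45.0 and 22.02 CPM.

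The early prophase range was set against the spermatogonia range as a description, since the stage lists fixed part of the contrast. By the size rule 24 of 2279 genes (1.05%) were higher and 5 (0.219%) lower in the early prophase range. Sycp2, of the lateral elements, stood at 313 CPM in the early prophase range and 15.8 CPM in the spermatogonia range, a ratio of 19.8 (9.44 to 49.7). Prss50, a testis protease gene, stood at 202 and 6.78 CPM, a ratio of 29.8, and Ly6k, a surface protein gene of male germ cells, at 393 and 18.1 CPM, a ratio of 21.7 (10.9 to 50.8). Meioc, a stage list gene that stabilises the meiotic programme, stood at 268 and 27.1 CPM. Rad51ap2, also in the stage list, had 81 UMIs in the early prophase range and 0 in the spermatogonia range, at least 15.8-fold higher. The selecting gene Sycp3 stood at 1331 and 201 CPM, while Dazl stood at 1467 and 1160 CPM.

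Some differences between the ranges rested on 1 barcode each. Cst12, a Sertoli marker, was higher in the early prophase range with 140 and 5 UMIs, and barcode 61, which held 107 of the 140, also held 4.53% of its UMIs in Sertoli genes. Among genes lower in the early prophase range, Ptcra had 45 of its 58 germ UMIs in 1 barcode, Vmn2r3 68 of 131 and Ubash3a 63 of 92. Sall4, a stage list gene spread over many barcodes, stood at 31.7 and 124 CPM. It was 3.93-fold lower (2.39 to 6.63), just short of the size rule. Dnd1, an RNA-binding protein of early germ cells, stood at 39.6 and 109 CPM, below the size rule.

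The synaptonemal complex list stood at 2072 CPM in the early prophase range and 848 CPM in the spermatogonia range, a ratio of 2.44 (2.18 to 2.74). The S phase list stood at 1516 and 1528 CPM in the same ranges, a ratio of 0.992 (0.901 to 1.09), and the G2 and M phase list at 3262 and 2437 CPM. The early response list did not differ beyond counting error, at 1514 and 1499 CPM. Markers of somatic cells also differed. Sertoli genes summed to 1554 CPM in the early prophase range and 576 CPM in the spermatogonia range, but barcode 61 held 723 of the 1178 UMIs, and without it the early prophase range stood at 613 CPM (558 to 672). Macrophage genes summed to 66.0 and 430 CPM, and barcode 15 held 124 of the 190 UMIs of the spermatogonia range, which stood at 162 CPM without it. The part of somatic RNA in the differences between ranges was not tested.

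**Figure D3:**
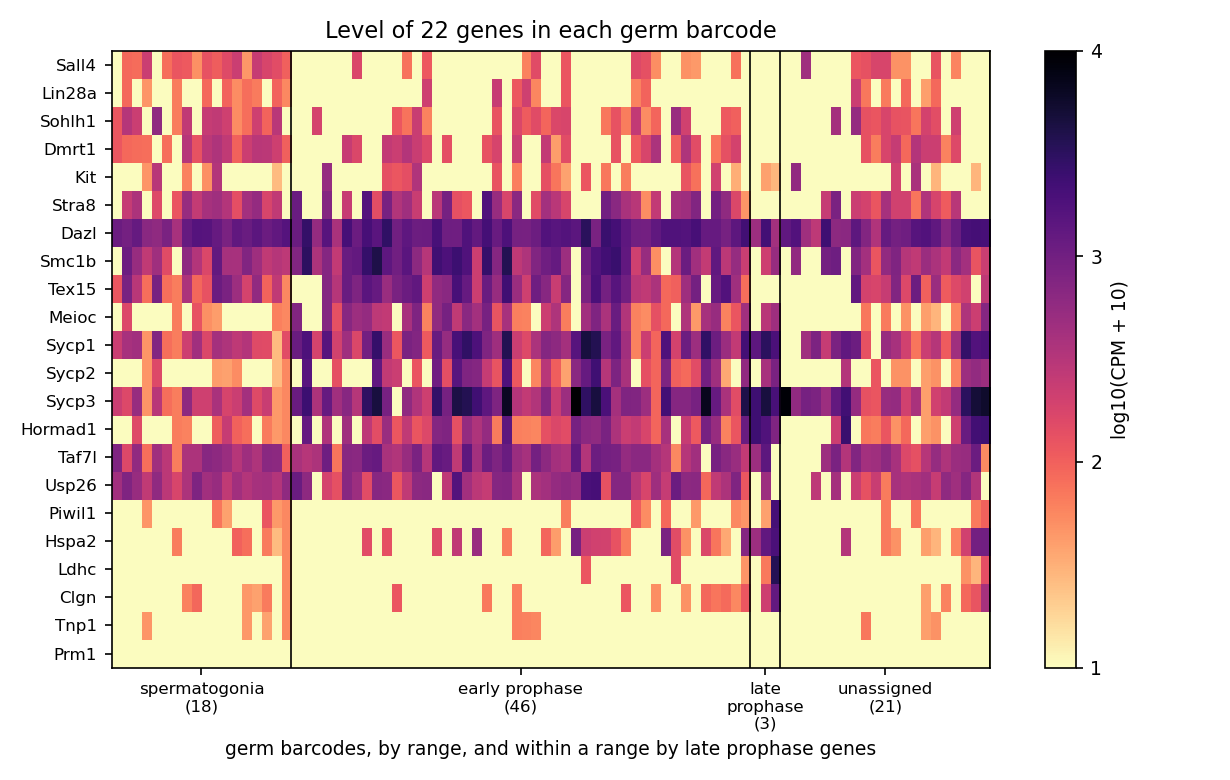
Level of 22 genes (rows) in each germ barcode (columns), coloured by log10(CPM + 10), with barcodes ordered by stage range and within a range by the number of late prophase genes. Sall4, Lin28a, Sohlh1 and Dmrt1 thin out from the spermatogonia to the early prophase range, and Sycp2 and Meioc fill in. All of these but Sycp2 are stage list genes that helped to set the ranges. Ldhc is nearly empty and Prm1 is empty.

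Genes of the late prophase list were seen at low counts in most barcodes and at high counts in few. At least 1 of them was found in 75 of 88 barcodes, with a median of 2 genes. Tbpl1 was found in 60 and Hspa2 in 39 of the 88, but somatic barcodes held both too. Among those with at least 2000 UMIs, Tbpl1 was found in 17.2% of Sertoli and 16.3% of Leydig barcodes, and Hspa2 in 27.6% and 38.1%. Ldhc was found in 9 and Adam2 in 4 germ barcodes. The count of 75 therefore does not place most barcodes in late prophase. The late prophase list had 1130 UMIs in the 88 barcodes, and 1 barcode, numbered 80, held 569 of them (50.4%) while holding 3.25% of all germ UMIs. Without it the list stood at 348 CPM (320 to 378) in germ barcodes and 79.2 CPM in the others, a ratio of 4.39, against 8.56 with it. Protamine genes Prm1, Prm2 and Prm3, the transition protein gene Tnp2, and Acrv1, Smcp, Gapdhs and Pgk2 had 0 UMIs in all germ barcodes, which allows up to 3 UMIs or 1.80 CPM each. Tnp1 had 11 UMIs in 10 barcodes. In 60 of 88 barcodes no round spermatid gene of 14 was seen, and 4 was the highest number.

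A group of 6 barcodes held 7 or more of the 14 late prophase genes, a limit chosen after the values were seen, and the next barcode held 6. Barcode 80 had 54103 UMIs, with 193 of Ldhc, the sperm lactate dehydrogenase, 114 of Piwil1, 102 of Hspa2, a chaperone of spermatocytes, 68 of Clgn and 55 of Ybx2. It had 18 UMIs of Hist1h1t, the linker histone of mid to late pachytene, of 28 in all germ barcodes, and 0 of Stra8. The next, barcode 52, had 3 UMIs of Ldhc, 2 of Piwil1, 23 of Hspa2 and 0 of Hist1h1t. Barcodes 74, 37, 30 and 1 had 1, 1, 1 and 2 UMIs of Ldhc and 20, 50, 5 and 44 of Hspa2. Only barcode 80 of the 6 thus carried the pachytene set at high counts.

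By the size rule, barcode 80 had 521 of 3013 genes (17.3%) higher and 241 (8%) lower than the other germ barcodes. Genes higher there included Ptchd3, with 19 of 20 germ UMIs, and Tekt1, a gene of the sperm tail, with 7 of 8. All 6 barcodes together had 255 of 2710 genes (9.41%) higher and 184 (6.79%) lower than the other 82, and the 5 without barcode 80 had 179 of 2613 (6.85%) higher and 196 (7.5%) lower. In these 5, Rsph1, of the radial spokes of cilia and sperm tails, stood at 1134 CPM, against 25.5 CPM in the other germ barcodes, and Meig1, a regulator of spermiogenesis in mice, at 564 and 17.2 CPM. Mt2, a metallothionein gene, had 1 UMI in the 5 and 891 in the others. The late prophase genes chose these barcodes, so these values are a description.

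Silencing of the sex chromosomes was examined as a property that the rule had not used. X-linked genes took 2.22% of the autosomal and X-linked UMIs of germ barcodes (2.20 to 2.24), against 3.69% in the other kept barcodes, 4.41% in Sertoli, 3.17% in Leydig and 4.99% in macrophage barcodes. The share was 2.05% in the spermatogonia range, 2.38% in the early prophase range and 1.51% in the late prophase range. The last value rested on barcode 80, 1 of 3 in that range, and without it the range stood at 3.74% (3.54 to 3.95). Without the 10 X-linked genes with most UMIs, chief among them Tmsb4x and ribosomal protein genes, germ barcodes stood at 1.87% and the others at 2.15%. Most of the gap between germ and other barcodes therefore lay in 10 genes.

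Across the 88 barcodes the X-linked share ranged from 0.0514% to 5.08% with a median of 2.26%. Barcode 80 was the lowest, with 27 X-linked UMIs beside 52487 autosomal ones (0.0339 to 0.0748%), and 0 UMIs of Y-linked genes. Barcode 52 followed with 0.587% (0.491 to 0.697), an early prophase barcode with 1.11% and barcode 74 with 1.43%. The other late prophase-rich barcodes 37, 30 and 1 had 2.86%, 3.39% and 3.84%, at or above the median, so the 6 lay on both sides of the median. Without barcode 80 the summed share was 2.30%.

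**Figure D4:**
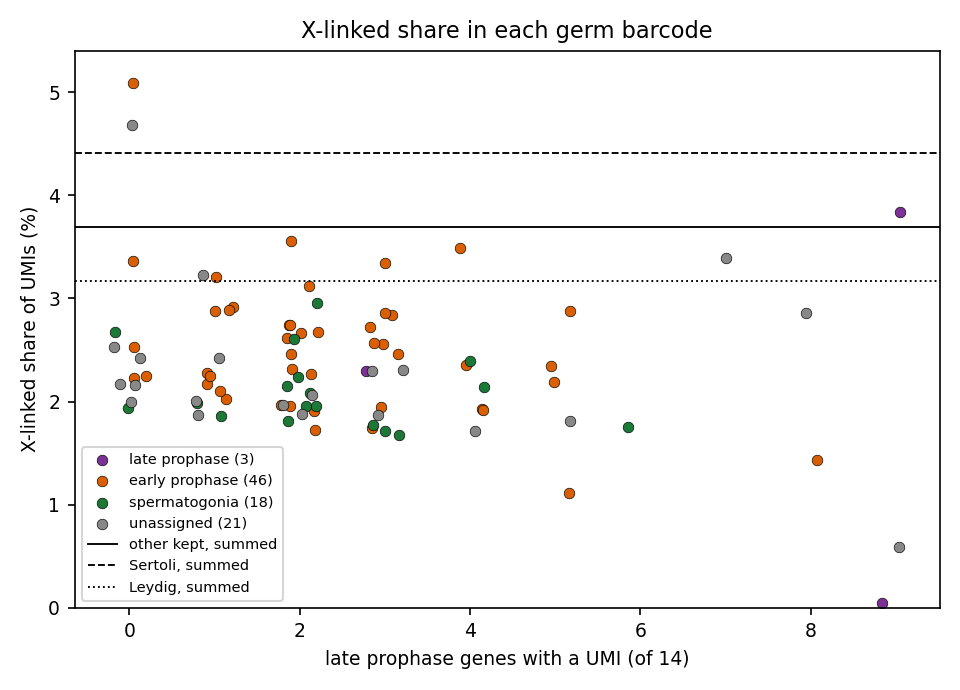
X-linked share of UMIs in percent (vertical) against the number of late prophase genes detected of 14 (horizontal, with small jitter) in each germ barcode, with lines for the summed share of other kept, Sertoli and Leydig barcodes. Barcodes 80 and 52, at 0.0514% and 0.587%, lie lowest at the right, where barcode 1 lies at 3.84%.

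The X-linked UMIs of barcode 80 were spread over 24 genes with at most 3 UMIs each. Ndufa1, of respiratory complex I, had 3, Rbbp7, of chromatin complexes, had 2 and each of the other 22 had 1. Taf7l and Usp26 had 0 UMIs there, whereas barcode 37, of similar depth with 52326 UMIs, had 57 and 17. The X-linked germline list as a whole had 1 UMI in barcode 80 and 3103 in all germ barcodes. Autosomal retrogenes, copies that replace silenced X-linked genes, had 176 UMIs in barcode 80 of 1868, with 77 of Rpl39l, 19 of Rpl10l and 16 of Pdha2, and 0 of Pgk2. Rpl39l was also seen in 83 of the 88 barcodes, with a median of 7 UMIs, so this retrogene was not tied to the barcodes low in X-linked RNA. Reads of retrogenes and of their parent genes can be hard to tell apart.

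The sex body list, of kinases and chromatin factors that work in silencing, stood at 1186 CPM in germ barcodes and 126 CPM in the others, with 8 of 10 members at least 4-fold higher at any level and 5 by the size rule. The ratio of the list was 9.44 against all other barcodes and 4.79 against Sertoli barcodes only. Scml2, an X-linked Polycomb protein of the germline, stood at 302 and 1.24 CPM, a ratio of 244 (202 to 297). Atr, the kinase that starts silencing, stood at 169 and 18.1 CPM, and Mdc1, which spreads the signal along the chromosome, at 91.8 and 10.1 CPM. Y-linked germline genes were present too. Zfy1 and Zfy2, zinc finger genes of spermatocytes, stood at 26.4 and 44.4 CPM in germ barcodes, against 0.0438 and 0.0876 CPM. Usp9y stood at 69.0 and 0.114 CPM, and Ddx3y, which somatic cells also express, at 53.4 and 114 CPM.

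Somatic RNA in the germ barcodes was counted because no doublets had been removed. At least 3 markers of a somatic list with at least 4 UMIs were found in 68 of 88 germ barcodes, and in 64 of them (72.7%, 62.2 to 81.7) for the Sertoli list. The same form of rule found Sertoli markers in 94.2% of Leydig and 62.7% of macrophage barcodes, so most barcodes of these classes met it too. Other classes were not counted, and the source of this RNA was not tested. Fibroblast markers were found in 10 germ barcodes, macrophage markers in 7, myoid markers in 4 and endothelial markers in 2, and pericyte, lymphocyte and erythroid markers in 0. In 3 barcodes a somatic list took 1% or more of UMIs, with Sertoli genes at 4.53% and 2.23% and fibroblast genes at 1.45%.

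Levels of somatic lists in germ barcodes were a small part of those in the other barcodes. The Leydig list stood at 3.09% of its level in the others, but the selection rule had limited 6 of its 9 genes. The macrophage list stood at 8.83%, the myoid list at 7.87%, the fibroblast list at 8.10% and the Sertoli list at 12.7%. Barcode 61 held 723 of the 1732 Sertoli UMIs, and without it the Sertoli list stood at 7.47%. Of the 17 Sertoli genes, Amh and Dhh had 0 UMIs in germ barcodes, and Defb19, a Sertoli defensin, stood at 323 and 3773 CPM. The endothelial list stood at 62.3%, where Cldn5, of tight junctions, had 43 UMIs of which 42 were in barcode 37. Barcode 30 held 58 of the 161 UMIs of the macrophage gene Lyz2. Both are among the late prophase-rich barcodes, and the part of somatic RNA in their X-linked share was not tested.

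**Figure D5:**
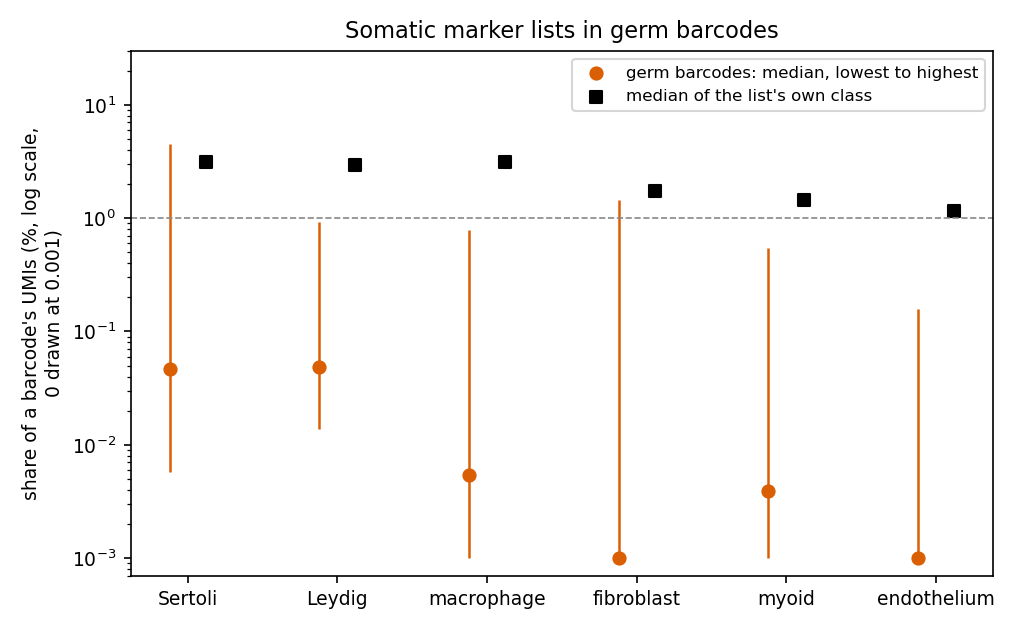
Share of a barcode's UMIs, in percent on a log axis, taken by each somatic marker list, as median and range over the 88 germ barcodes (left of each pair) and as the median of the barcodes of that list's own class (right). Germ medians were 0.0468% for Sertoli and 0.0482% for Leydig genes, against 3.10% and 2.95% in their own classes. Each own class was defined by at least 1% of UMIs in that list, and the selection rule limited 6 of the 9 Leydig genes. Part of these gaps was thus set by definition. Single germ barcodes passed the dashed line at 1%.

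Leaving out all 68 barcodes with co-detected somatic markers left 20 germ barcodes with an X-linked share of 1.83% and ranges of 3, 11, 1 and 0 barcodes. Barcode 80 was among the 20, and without it the other 19 stood at 2.24% (2.18 to 2.30). In these 20 barcodes 576 genes were higher and 523 lower by the size rule. Leaving out instead the 3 barcodes with 1% or more, an alternative chosen after the data were seen, left 85 barcodes with 434 genes higher, 480 lower and an X-linked share of 2.19%.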

How the data were processed

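Per the file headers and the labels, the authors deposited raw UMI counts per gene and barcode, whole numbers with no normalization, for 26124 genes. The build GRCm38.p6 and the tools Cell Ranger 6 and Seurat 4.2.1 stand in the submitters' processing notes, and per the file headers the knockout matrices were written by Cell Ranger 6.1.2 and the chimera matrix by Cell Ranger 4. The knockout testis library held 134795047 UMIs in 18108 barcodes, the knockout cauda 41862286 and the chimera cauda 5395856 UMIs. Whether counting used strand is not given in the sources used here.

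Samples were grouped by their titles. From the counts, UMIs were summed over germ barcodes and over the other kept barcodes and divided by the summed total to give CPM. Intervals at 95% are exact: Poisson for a level, Clopper-Pearson for a share and conditional binomial for a ratio. PCR copies are merged by UMIs, and intervals and floors cover counting error only. A count of 0 allows up to 3 UMIs over the group, and a ratio against 0 was taken at that floor as a bound. Sertoli, Leydig and macrophage barcodes were other kept barcodes whose largest somatic list held at least 1% of UMIs. Chromosomes came from GENCODE M21, in which 26090 gene IDs were found, and promoters from RefSeq, in which 22 of the 25 named genes have a window. A total of 73 symbols are carried by more than 1 gene. Thinning used seed 7.

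Named genes were the 25 with the largest and 12 with the lowest ratio at 100 CPM or more, without mitochondrially encoded and ribosomal protein genes and numbered gene models, up to 6 members with most UMIs of each gene list, any member of a list of 12 or fewer, Tsc22d3, and the 10 with the largest ratio each way between ranges. Other genes named were chosen after their values were seen. The members, gene lists and comparisons were chosen with earlier results of these data known. The ratio and its interval were tested on simulated data. Alternatives changed the selection, depth and mitochondrial limits, the weighting, the size rule and the stage rule. Values without single barcodes and against Sertoli barcodes only were added after the data were seen. Tools were Python 3.11.15, NumPy 2.4.6, SciPy 1.17.1 and pandas 2.3.3.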

Additional observations from a re-analysis of the deposited data

Results flagged for a closer look

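The same germline rule was applied to the cauda libraries, which the account above does not use. In the chimera cauda 3 of 184 kept barcodes met it, 1.63% (0.338 to 4.69), and in the knockout cauda 0 of 3525 did, 0% (0 to 0.105). These 3 barcodes held 1897, 3256 and 2836 UMIs, with 5, 6 and 8 of the 14 late prophase genes and 8, 16 and 6 UMIs of elongating spermatid genes. Dazl and Stra8 had 0 UMIs in all 3, while Mael had 1, 4 and 5 UMIs. In each of the 3, late prophase genes outnumbered early prophase genes, of which 2, 1 and 1 were seen. The chimera carried cells of the iPSC line, which the labels do not give for the knockout cauda. The chimera and knockout matrices were also written by different software versions, and the tissue and protocol differ from the testis. These causes cannot be told apart from the groups.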

How the results depend on the processing

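The number of germ barcodes was 78 to 106 with other limits on selecting genes, steroidogenic genes, depth and mitochondrial share, and 20 without barcodes that held somatic markers. With 20 CPM as the minimum, 1296 genes were higher and 1326 lower, since more genes are tested. The stage ranges held 3, 11 and 1 barcodes in the spermatogonia, early prophase and late prophase ranges without barcodes that held somatic markers. They held 40, 22, 7 and 1 by the largest scaled UMI sum, with 1 in the round spermatid range, and 5 and 1 in the spermatogonia and late prophase ranges after thinning. The cause was not tested. The X-linked share was 2.18% with 4 or more selecting genes, 2.48% with 2 or more, 2.30% with no steroidogenic limit, 2.19% at 10% mitochondrial UMIs and 1.83% without somatic markers. Without barcode 80 the last value was 2.24%. In alternatives chosen after the data were seen, it was 2.19% without barcodes with a somatic list at 1% and 1.87% without 10 X-linked genes. Barcodes with somatic markers numbered 3 when a list had to reach 1% of UMIs. Against Sertoli barcodes only, an alternative chosen after the data were seen, the ratio turned round for 3 results: the round spermatid list (0.848), the endothelium list (2.55) and Hba-a1 (1.16). No other ratio of a list or named gene changed direction under any of the 9 settings computed for them. No paired analysis was possible because each group is 1 library and no result comes from a test. Depth limits genes with few UMIs, since 3 UMIs over all germ barcodes are 1.80 CPM.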

Other observations

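Several germline genes were also detected in barcodes of Sertoli cells, the somatic nurse cells of the tubule. Of 161 germline list genes, 9 stood at 10 CPM or more in Sertoli barcodes and at least 5 times their level in Leydig and macrophage barcodes. These limits were chosen after the values were seen, and 109 genes stood under 1 CPM in Sertoli barcodes. The share of all genes that meets the same limits was not counted, so the 9 are a description and not an excess. Dazl, a selecting gene, stood at 1346 CPM in germ barcodes and 27.2 CPM in Sertoli barcodes, against 2.82 CPM in Leydig and 1.10 CPM in macrophage barcodes. Thinned to 2000 UMIs it was detected in 83.7% of germ, 4.92% of Sertoli (3.50 to 6.69), 0.223% of Leydig and 0.229% of macrophage barcodes. Fkbp6 was detected in 52.3% of germ and 14.4% of Sertoli barcodes (11.96 to 17.03). Dmrt1, which Sertoli cells are known to express, stood at 127 CPM in germ and 56.2 CPM in Sertoli barcodes. The others were Tdrd1, Tdrd9 and 4930447C04Rik, at 38.3%, 21.2% and 5.34% of their germ level, and Nxf3, Mybl1 and Spaca1, which stood higher in Sertoli than in germ barcodes. Nxf3, an X-linked RNA export factor gene, stood at 11.999 CPM in germ and 119 CPM in Sertoli barcodes. By contrast Smc1b and Sycp1 were each detected in 0.259% of thinned Sertoli barcodes. The cause of these levels was not tested.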
